A study of Mus musculus with 4 samples.

Results

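The 10 genes described here are the IL-6 family cytokine genes Il6 and Lif, the receptor genes Il6ra, Il6st and Osmr, the kinase gene Jak1, the transcription factor gene Stat3, its feedback inhibitor Socs3, and the C/EBP factor genes Cebpb and Cebpd. They were chosen by name, as every probe that is not a control and carries one of these names, which gave 18 of the 56605 probes on the array. RNA from GC-1 cells, a mouse spermatogonial line, was measured on 4 one-colour Agilent arrays. On 2 arrays (Hdac6 vector 1 and 2) the cells had received a plasmid in which a CMV promoter drives murine Hdac6 with a myc/DDK tag, and on the other two (empty vector 1 and 2) the empty vector. Both groups were of the same line, were transfected, kept in the same medium with fetal bovine serum, and harvested at 48 h. Hdac6 encodes a mostly cytoplasmic deacetylase that acts on tubulin and other proteins. Since the labels leave unsaid whether the arrays of a group stand for independent cultures, all p-values rest on the spread between these 4 arrays alone, which may be technical.

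IL-6 family cytokines bind a receptor that is specific to the ligand and then share one signalling subunit, gp130, the product of Il6st. Receptor assembly activates JAK kinases, which phosphorylate STAT3, and STAT3 in turn induces Socs3, whose product blocks the receptor. In liver and other tissues the same signal raises C/EBP beta and C/EBP delta, which act with STAT3 and NF-kB on the genes of acute-phase proteins such as serum amyloid A, haptoglobin and lipocalin 2. LIF is best known for holding mouse embryonic stem cells in the undifferentiated state through STAT3.

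All levels below are log2 processed spot signals minus the 75th percentile of the same array, so a level of 0 lies at that percentile and a difference of 1 is a doubling of signal. Levels of different probes are not compared, since probes differ in brightness for reasons other than transcript number. The percentile stood at signals of 815 and 452.6 on the Hdac6 vector arrays, against 665.8 and 692.8 on the empty vector arrays. Of the spots, 64.3% and 61.0% were well above background with the Hdac6 vector, against 66.4% and 65.1% with the empty vector. Hdac6 vector 1 and empty vector 2 were the closest pair of arrays, with 0.604% of 32594 probes at least 2-fold apart, against 3.82% to 6.84% for the other pairs. Pairs within a group were thus less alike than that pair across groups. The array's Hdac6 probe read 2.62 and 3.24 with the Hdac6 vector, against 3.31 and 2.83 with the empty vector, and did not differ (0.909-fold, limma adjusted p = 1.00). The probe holds AATAAA, the letters of the usual polyadenylation signal, at its base 34. Its place in the mRNA was not looked up, and whether the vector's transcript holds its sequence is not known here, so it was not used as a check of the labels. Of 12 spermatogonial marker genes, 6 were well above background on all 4 arrays, among them Zbtb16, Sall4 and Nanos3, while Dazl and Kit were not so on any. Their summed level was 18.9 to 25.8 times the percentile with the Hdac6 vector, against 20.2 to 40.4 times with the empty vector.

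No probe of the 10 genes changed. In bulk RNA such as this, fewer cells of a type and less RNA per cell cannot be told apart. Of the 18 probes 17 were well above background on all 4 arrays and entered the test, and 0 of these 17 had a limma adjusted p under 0.05, beside 0.0114% of all 35206 tested probes. The smallest unadjusted p was 0.0315, for 1 probe of Il6ra, and 1 of 17 had an unadjusted p under 0.05, beside 1.83% of all tested probes. On 2 of the 17 probes both Hdac6 vector arrays lay above both empty vector arrays, which 13.1% of all tested probes did, and on 0 both lay below, which 11.9% did (25% in either direction). The median log2 difference was -0.05 over the 17 probes and 0.02 over all tested probes. For 16 of the 17 probes the difference between groups was smaller than the larger gap between the arrays of 1 group, the exception being the brightest Stat3 probe. The share of all tested probes for which this holds was not counted, so it is not read as a trait of these genes.

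**Figure D1:**
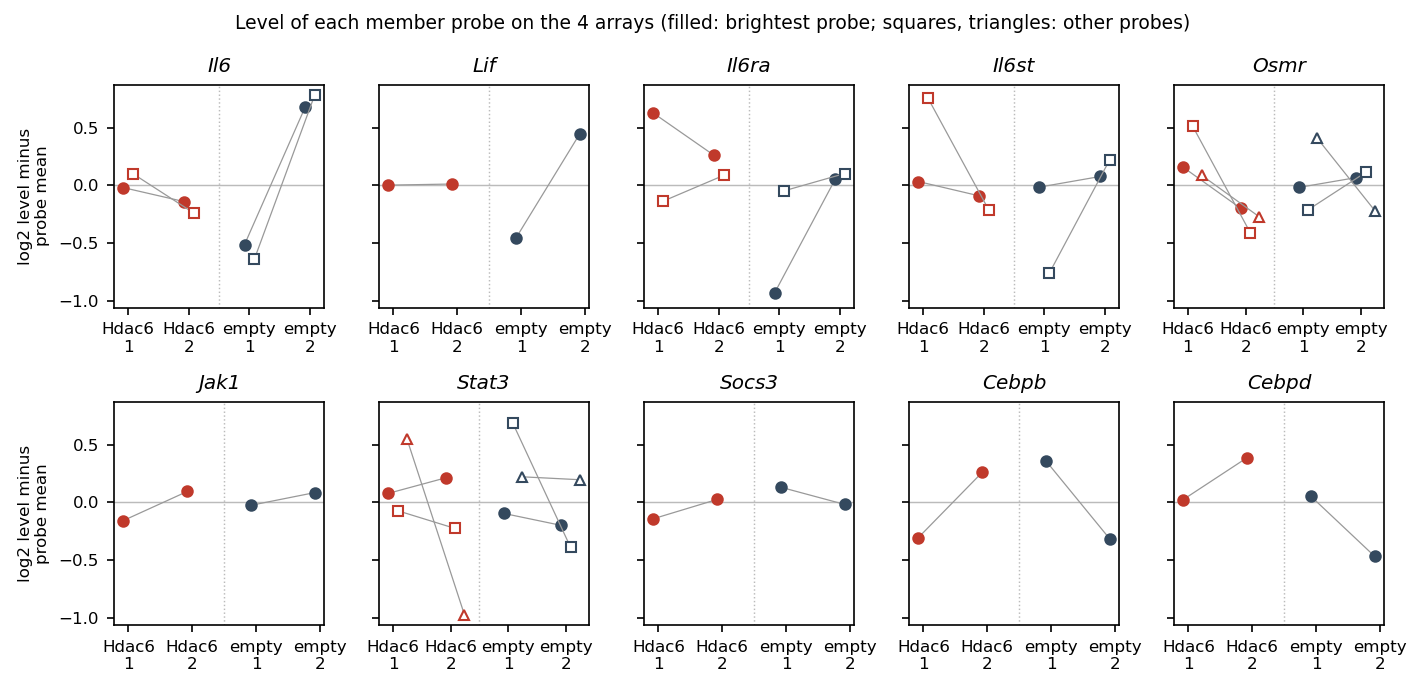
Level of the 17 tested probes on Hdac6 vector 1 and 2 (red) and empty vector 1 and 2 (dark blue), as log2 level minus the probe's own mean over the 4 arrays. Filled circles are the brightest probe of a gene, squares and triangles its dimmer probes, and lines join the arrays of 1 group. Both Il6 probes and the Lif probe are lowest on empty vector 1 and highest on empty vector 2.

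Among the ligands, Il6 was measured by 2 probes that lie 208 bases apart on chromosome 5 (mm9, plus strand, 30346367 to 30346426 and 30346159 to 30346218). The brighter stood at -1.23 and -1.35 with the Hdac6 vector, against -1.72 and -0.53 with the empty vector. The dimmer stood at -1.98 and -2.32 with the Hdac6 vector, against -2.72 and -1.29 with the empty vector. Both probes thus ranked the arrays alike, with empty vector 2 highest and empty vector 1 lowest, and the Hdac6 vector arrays between them. The gap between the 2 empty vector arrays was 1.19 and 1.43 on the log2 scale. The scanner software gave these spots an error of 10.0% to 10.4% of the signal, and no tested member spot less than 10%. That figure does not measure the spread between arrays. Fold changes were 0.893 (95% interval 0.486 to 1.64, limma adjusted p = 1.00 for both) and 0.907 (0.449 to 1.83). Without empty vector 2 the log2 differences of these Il6 probes turned to 0.43 and 0.57, so that no direction is given for Il6.

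Lif, on chromosome 11 (mm9, plus strand, 4172032 to 4172091), followed the same order on the empty vector arrays. It read -2.14 and -2.13 with the Hdac6 vector, against -2.60 and -1.69 with the empty vector. The Hdac6 vector arrays lay 0.0098 apart and the empty vector arrays 0.90 apart. The fold change was 1.01 (95% interval 0.576 to 1.76, limma adjusted p = 1.00).

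Of the receptors, Il6ra, which encodes the subunit that binds IL-6 itself, had the smallest p of all members. Its brighter probe (chromosome 3, mm9, minus strand, 89674054 to 89674113) read 0.70 and 0.34 with the Hdac6 vector, against -0.86 and 0.13 with the empty vector. Both Hdac6 vector arrays lay above both empty vector arrays, and empty vector 1 stood apart from the other 3. The fold change was 1.85 (95% interval 1.07 to 3.19, limma adjusted p = 1.00), so the probe did not pass. Without empty vector 2, leaving the low empty vector 1 as the only array of its group and assumed to vary like the others, the Il6ra difference passed (log2 1.38, limma adjusted p = 0.0220), and without empty vector 1 it was 0.39 on the log2 scale (adjusted p = 1.00).

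The other Il6ra probe lies 6689 bases nearer the 5′ side (89680743 to 89680802) and its sequence is shown because it does not share the difference.

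Il6ra probe 2: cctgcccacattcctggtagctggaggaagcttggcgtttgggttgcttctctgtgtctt

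This Il6ra probe read -3.65 and -3.43 with the Hdac6 vector, against -3.56 and -3.41 with the empty vector. Its arrays overlapped, at 0.964-fold (95% interval 0.583 to 1.59). The 2 probes of Il6ra thus did not show the same difference, though their intervals overlap between 1.07 and 1.59. The scanner software's error of the dimmer probe was 10.7% to 11.9% of its signal on the 4 arrays.

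Il6st encodes gp130, the subunit through which the whole family signals. Its brightest probe (chromosome 13, mm9, plus strand, 113296586 to 113296645) was among the steadiest of the set. It read 1.67 and 1.55 with the Hdac6 vector, against 1.62 and 1.72 with the empty vector. The 4 values span 0.17 on the log2 scale, and the fold change was 0.960 (95% interval 0.668 to 1.38). A second probe lies 1991 bases nearer the 5′ side (113294595 to 113294654) and reads the end of the coding sequence. It is shown with 2 stretches in capitals, each a tyrosine codon, any pair of codons and a glutamine codon, read in frame 3, with a TGA stop codon at base 57. In gp130, tyrosines followed in this way by glutamine are known as docking sites of STAT3.

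Il6st probe 2: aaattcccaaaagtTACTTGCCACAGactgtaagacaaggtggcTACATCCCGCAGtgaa

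The tyrosine codons start at bases 15 and 45 of this Il6st probe. It read -3.24 and -4.20 with the Hdac6 vector, against -4.76 and -3.77 with the empty vector. The groups overlapped, with gaps of 0.97 and 0.99 inside them, and the fold change was 1.46 (95% interval 0.712 to 2.98, limma adjusted p = 1.00). Leaving out empty vector 1 took its log2 difference to 0.05, and leaving out empty vector 2 took it to 1.04. The third Il6st probe (113273739 to 113273798) lies 22847 bases from the brightest toward the 5′ side and was designed on another transcript. It holds ATTAAA, the letters of a polyadenylation signal, at base 34, and whether they act as one was not looked up. It was not well above background on any array and was not tested.

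Osmr encodes the subunit that pairs with gp130 to bind oncostatin M. Its brightest probe (chromosome 15, mm9, minus strand, 6763686 to 6763745) read 4.52 and 4.16 with the Hdac6 vector, against 4.34 and 4.43 with the empty vector. The Hdac6 vector arrays enclosed the empty vector arrays, at 0.968-fold (95% interval 0.664 to 1.41). The probe 28292 bases to the 5′ side (6791978 to 6792037) read 0.09 and -0.27 with the Hdac6 vector, against 0.42 and -0.21 with the empty vector. The probe 41301 bases to the 5′ side (6804987 to 6805046) read 0.69 and -0.24 with the Hdac6 vector, against -0.04 and 0.28 with the empty vector. These 2 dimmer Osmr probes stood at 0.877-fold and 1.07-fold, each with overlapping groups.

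In the signalling step, Jak1, a kinase bound to gp130, was measured by 1 probe on chromosome 4 (mm9, minus strand, 100825094 to 100825153). It read 3.59 and 3.84 with the Hdac6 vector, against 3.72 and 3.83 with the empty vector. All 4 arrays lay within 0.25 on the log2 scale, and the fold change was 0.958 (95% interval 0.666 to 1.38).

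Stat3 had the only probe whose groups differed by more than the gap inside either. The brightest Stat3 probe (chromosome 11, mm9, minus strand, 100749598 to 100749657) read 3.39 and 3.52 with the Hdac6 vector, against 3.21 and 3.11 with the empty vector. Both Hdac6 vector arrays were higher, by a log2 difference of 0.29 (SE 0.23), or 1.23-fold (95% interval 0.859 to 1.75, limma adjusted p = 1.00). The difference did not pass in the fit, which shares its estimate of spread across probes of like signal, and the gaps inside the groups were 0.14 and 0.10. With 1 array left out the log2 difference of this probe stayed between 0.23 and 0.36.

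The 2 dimmer Stat3 probes had log2 differences below 0, and each turned sign with 1 array left out. The one 13484 bases to the 5′ side of the gene's last probe (100759946 to 100760005) read -3.14 and -3.30 with the Hdac6 vector, against -2.38 and -3.46 with the empty vector, at 0.814-fold (95% interval 0.436 to 1.52). The last probe, nearest the 3′ end (100746462 to 100746521), read -3.38 and -4.91 with the Hdac6 vector, against -3.72 and -3.74 with the empty vector, at 0.748-fold (0.351 to 1.59). Their widest gaps, 1.07 between the empty vector arrays and 1.53 between the Hdac6 vector arrays, exceeded both differences. With 1 array left out the log2 difference ran from -0.83 (without empty vector 2) to 0.24 (without empty vector 1) for the first of them, and from -1.18 (without Hdac6 vector 1) to 0.34 (without Hdac6 vector 2) for the last probe. The software's error of the last probe reached 20.2% of its signal on Hdac6 vector 2. The 3 Stat3 probes therefore give no common direction.

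Socs3, the gene that STAT3 induces to close its own pathway, is often read as a marker of STAT3 activity. Its probe (chromosome 11, mm9, minus strand, 117827480 to 117827539) read 5.23 and 5.40 with the Hdac6 vector, against 5.50 and 5.35 with the empty vector. The 4 values overlapped within 0.27 on the log2 scale. The fold change was 0.924 and its 95% interval, 0.638 to 1.34, was the one with the lowest upper limit among the brightest probes of the 10 genes.

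The C/EBP factors differed from each other in how the arrays lay. Cebpb (chromosome 2, mm9, plus strand, 167515828 to 167515887) read 6.79 and 7.35 with the Hdac6 vector, against 7.45 and 6.78 with the empty vector. Each group held 1 high and 1 low array, with gaps of 0.57 and 0.68, and the low arrays were Hdac6 vector 1 and empty vector 2, the closest pair. The fold change was 0.970 (95% interval 0.588 to 1.60). Cebpd (chromosome 16, mm9, plus strand, 15888459 to 15888518) read 4.48 and 4.84 with the Hdac6 vector, against 4.51 and 3.99 with the empty vector. Hdac6 vector 2 was highest and empty vector 2 lowest, and the groups overlapped by a small margin between the other two arrays. The Cebpd log2 difference was 0.41 (SE 0.27), or 1.33-fold (95% interval 0.873 to 2.03, limma adjusted p = 1.00), and with 1 array left out it lay between 0.15 and 0.67.

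**Figure D2:**
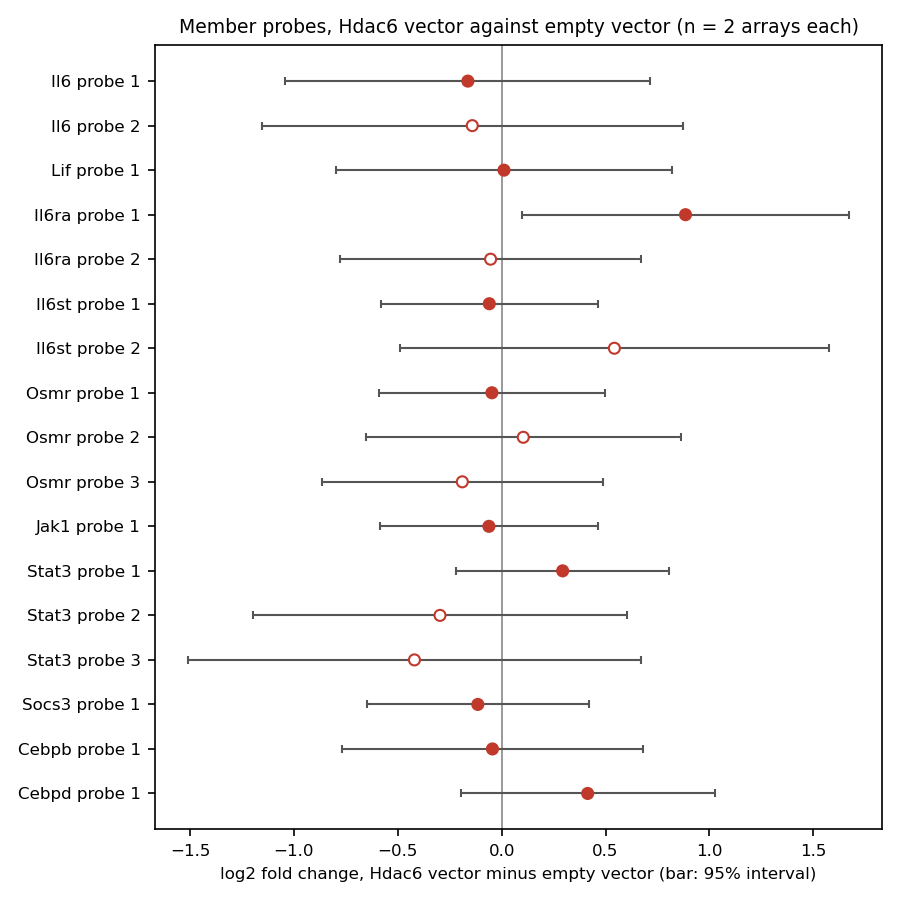
Log2 fold change of each tested probe, Hdac6 vector minus empty vector (n = 2 arrays each), with the 95% interval of the limma fit as bars. Filled points are the brightest probe of each gene. The interval lies wholly above 0 for Il6ra probe 1 (0.10 to 1.67) and for no other probe, and that probe did not pass after adjustment.

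The intervals bound what the arrays could have missed. Over the brightest probes of the 10 genes, the upper 95% limit was under 2-fold for 8, the exceptions being Il6ra (3.19) and Cebpd (2.03). The lower limit was above 0.5-fold for 9, the exception being Il6 (0.486). Dimmer probes of the same genes left wider limits, up to 2.98-fold for the second Il6st probe and down to 0.351-fold for the last Stat3 probe. These limits cover the spread between arrays as the fit estimates it, and the number of arrays limits their precision.

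**Figure D3:**
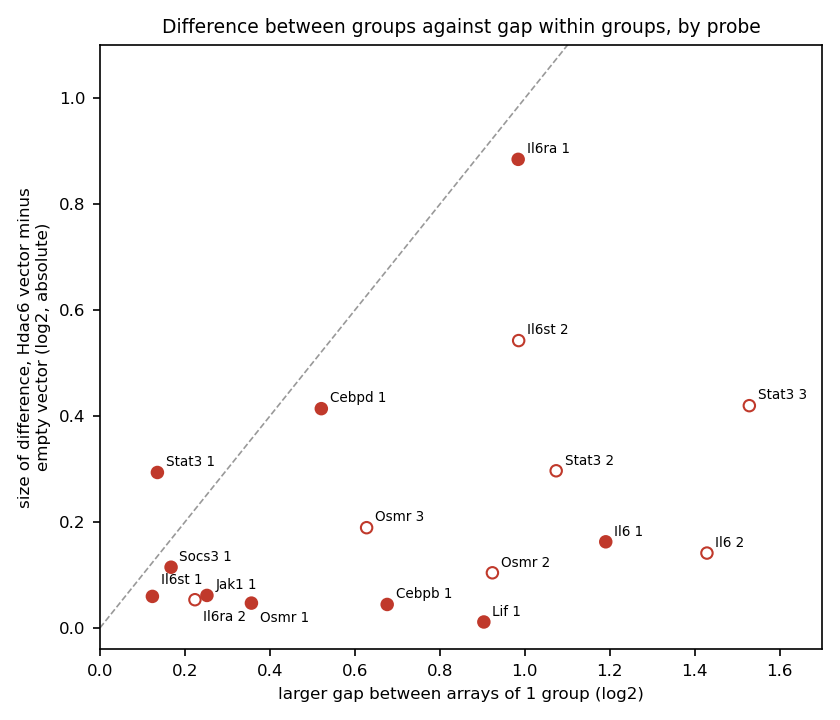
Size of the difference between groups (absolute log2) against the larger of the 2 gaps between arrays of 1 group, for the 17 tested probes; filled points are the brightest probe of each gene. On the dashed line both are equal. Stat3 probe 1 lies above the line, at 0.29 against 0.14, and the other 16 lie below it. The share of all tested probes above the line was not counted.

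The authors' value table holds 1 value per gene and array, which for each of the 10 genes equalled the mean of the gene's detected probes within 0.0066 on the log2 scale, once a constant offset of each array was taken off. For the 5 genes with several probes, that mean joins bright and dim probes. The Stat3 row was lower with the Hdac6 vector in that table by a log2 difference of -0.22, while the brightest Stat3 probe stood at 0.29. The Il6ra row stood at 0.34 in the table, against 0.88 for its brighter probe, and the Il6st row at 0.16, against -0.06. None of the 10 rows changed in a limma fit of that table (adjusted p = 1.00 for each, and 0 with an unadjusted p under 0.05). Of all 23460 rows in that fit 19 changed and 645 had an unadjusted limma p under 0.05.

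Around the 10 genes, 43 further signalling genes of the pathway were looked up, of which 37 were tested and 6 were not. None changed in either direction (0 up and 0 down), beside 0.00852% of all tested genes. An unadjusted limma p under 0.05 was found for 0 of the 37, beside 1.83% of all tested probes. Their median log2 difference was -0.07, with 16 higher and 21 lower, beside 0.00 over all 23469 tested genes. On 2 of the 37 both Hdac6 vector arrays lay above, which 12.3% of all genes did, and on 2 both lay below, which 12.9% did. By role, the median was -0.11 over 7 ligand genes, -0.02 over 4 receptor genes, 0.09 over 3 JAK genes, -0.14 over 5 STAT genes, -0.08 over 15 genes of SOCS and other inhibitors, and 0.15 over 3 C/EBP genes.

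Named counterparts of the 10 genes behaved in the same range. Each tested counterpart is given by its brightest tested probe. Lifr had 3 tested probes and Jak2 and Ddit3 had 2 each, and their dimmer probes are not reported here. Il11, a ligand of the same family, read -1.51 and -1.42 with the Hdac6 vector, against -1.22 and -1.36 with the empty vector, both Hdac6 vector arrays being lower at 0.889-fold (95% interval 0.578 to 1.37). Osm, which encodes oncostatin M, was not well above background on any array. Lifr, the LIF receptor subunit gene, stood at 0.923-fold and the kinase gene Jak2 at 1.22-fold. Socs1 stood at 0.949-fold, Cebpa at 1.11-fold and Ddit3, a stress-induced C/EBP partner gene, at 0.965-fold. Each of these 6 tested counterparts had a limma adjusted p of 1.00.

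Of the genes downstream of the pathway, 16 acute-phase genes were listed and 12 tested. With the Hdac6 vector 11 of the 12 had a log2 difference above 0, and the median was 0.90. Saa3 and Saa1, serum amyloid A genes, changed (2 up, 0 down), beside 0.00852% of all tested genes. In 9 of the 12 both Hdac6 vector arrays lay above both empty vector arrays, beside the 12.3% of all genes given above. This list was drawn up with the rise of Saa3 and Saa1 already known, so its count is not independent evidence of a direction. Among 10 STAT3 target genes the median was -0.12, 7 had a log2 difference below 0, and 0 changed. Of these 10 targets 1 (Pim1) had an unadjusted limma p under 0.05, beside 1.83% of all tested probes. In 3 of the 10 both Hdac6 vector arrays lay below, beside 12.9% of all genes. The difference between the 2 lists was not tested.

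Saa3 (chromosome 7, mm9, minus strand, 53967559 to 53967618) read 6.25 and 6.63 with the Hdac6 vector, against 3.79 and 4.02 with the empty vector (5.78-fold, 95% interval 3.90 to 8.59, limma adjusted p = 0.0341). Saa1 (53996070 to 53996129) read 3.13 and 3.32 with the Hdac6 vector, against 0.74 and 1.01 with the empty vector (5.10-fold, 3.51 to 7.42, adjusted p = 0.0341). Both groups of each gene were well separated. The calls of both genes were lost without Hdac6 vector 1 (adjusted p = 0.693 each) and without Hdac6 vector 2 (0.902 for Saa3, 1.00 for Saa1), while the log2 differences with an array left out stayed above 2.21. Both calls were also lost with median scaling and in the fit without a trend, and that of Saa1 with quantile normalization and in the value table. Hp, the haptoglobin gene, read 2.73 and 3.06 with the Hdac6 vector, against 1.05 and 0.57 with the empty vector. It did not pass (4.24-fold, 2.80 to 6.43, limma adjusted p = 0.171). With 1 array left out, which leaves 1 array in a group, the Hp log2 difference lay between 1.84 and 2.33. Lcn2, the lipocalin 2 gene, read -0.70 and -0.72 with the Hdac6 vector, against -2.18 and -1.70 with the empty vector. It did not pass either (2.35-fold, 1.48 to 3.72, limma adjusted p = 1.00). With 1 array left out the Lcn2 log2 difference lay between 0.99 and 1.47.

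The acute-phase genes Lbp, Cp, Saa2, Orm1 and Orm2, picked after their values were seen, had groups that did not overlap and did not pass. Lbp, which encodes a lipopolysaccharide-binding protein, read 1.69 and 1.93 with the Hdac6 vector, against 0.81 and 1.12 with the empty vector, a log2 difference of 0.85. Cp, the ceruloplasmin gene, read 2.90 and 2.55 with the Hdac6 vector, against 1.32 and 2.38 with the empty vector. Saa2, Orm1 and Orm2, all dim, showed log2 differences of 0.92, 1.09 and 0.82. Saa2 read -4.26 and -4.02 with the Hdac6 vector, against -4.92 and -5.20 with the empty vector. Orm1 read -4.45 and -4.50 against -5.64 and -5.49, and Orm2 -4.98 and -4.73 against -5.72 and -5.63, in the same order. The lowest levels well above background were -5.82 and -5.33 on the Hdac6 vector arrays and -6.38 and -6.04 on the empty vector arrays. These dim genes are among those counted above as not overlapping. Saa1 and Saa2, like Orm1 and Orm2, are near-identical copies, and signal from one copy on the other's probe was not tested. The fibrinogen genes Fga, Fgb and Fgg and A2m were too dim to be tested, and Itih4 was the 1 tested gene below 0 (log2 -0.55).

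Markers of macrophages and leukocytes, cells that can express Il6 and Saa3, were summed on the linear scale relative to the percentile. Of 11 such genes 9 were well above background on all 4 arrays, Adgre1 and Tyrobp were not so on any, and 0 of 9 tested changed. The sum was 20.8 to 22.1 with the Hdac6 vector, against 24.1 to 36.0 with the empty vector. The part of these cells in the acute-phase result was not tested. Sertoli cell markers summed to 97.0 to 131 with the Hdac6 vector, against 109 to 138 with the empty vector, and peritubular myoid markers to 13.6 to 14.9 with the Hdac6 vector, against 10.3 to 10.9 with the empty vector. Leydig cell markers, of which 1 of 6 (Cyp17a1) was well above background on all 4 arrays, summed to 0.270 to 0.335 with the Hdac6 vector, against 0.256 to 0.275 with the empty vector. The myoid sum lay higher on both Hdac6 vector arrays, while the Leydig sums of the groups overlapped. The part of either cell type in the acute-phase result was not tested.

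**Figure D4:**
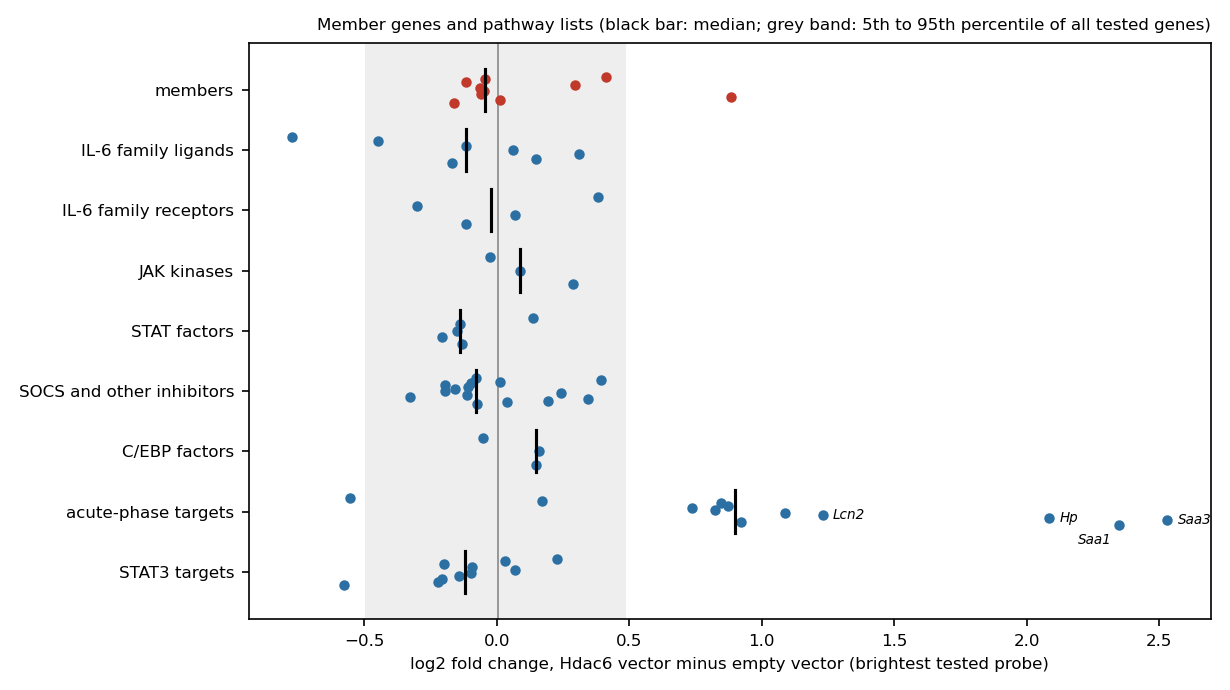
Log2 fold change, Hdac6 vector minus empty vector, of the brightest tested probe of each member gene (red) and of each gene in the pathway lists (blue), with list medians as black bars. The grey band holds the values of all tested genes from the 5th to the 95th percentile (-0.49 to 0.48). No signalling gene outside the 10 lies to the right of the band (their range is -0.77 to 0.40), and the acute-phase genes lie mostly there.

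Promoters were searched for the motifs of STAT and C/EBP factors, and of NF-kB, which acts with them on acute-phase genes. In the 250 bases before each RefSeq start (GRCm38.p6), both strands were searched for TTCNNNGAA (STAT), TTGCNNAA (C/EBP) and the NF-kB motif. Of 32851 such promoters 7.02% held the STAT motif, 9.56% the C/EBP motif and 0.356% the NF-kB motif. Of the 10 genes 9 had a promoter in the table. Socs3 held the STAT motif, and Il6 held both the C/EBP and the NF-kB motif. Of the acute-phase genes only Saa3, Saa1, Hp and Lcn2 were looked up, chosen with earlier results of these data known. Hp had no promoter in the table, and Saa3, Saa1 and Lcn2 each held 1 C/EBP motif. A match describes these letters and does not show that a factor binds there. Other forms of these sites were not searched, so a promoter without a match may still hold a site. The promoters of Il6, Socs3 and Saa3 are shown 5′ to 3′, ending at the base before the start, with the motifs in capitals.

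Il6 (chr5:30012864-30013113, plus strand): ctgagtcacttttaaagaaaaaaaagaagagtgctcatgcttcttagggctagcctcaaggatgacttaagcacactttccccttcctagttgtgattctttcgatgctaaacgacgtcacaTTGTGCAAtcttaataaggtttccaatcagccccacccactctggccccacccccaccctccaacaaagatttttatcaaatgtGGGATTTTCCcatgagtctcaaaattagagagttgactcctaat

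Socs3 (chr11:117969367-117969616, minus strand): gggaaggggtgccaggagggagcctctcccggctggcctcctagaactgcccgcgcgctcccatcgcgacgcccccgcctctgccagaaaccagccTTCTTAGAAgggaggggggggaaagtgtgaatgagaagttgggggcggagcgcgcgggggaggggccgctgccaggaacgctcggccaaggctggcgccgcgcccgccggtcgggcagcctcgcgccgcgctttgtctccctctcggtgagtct

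Saa3 (chr7:46715677-46715926, minus strand): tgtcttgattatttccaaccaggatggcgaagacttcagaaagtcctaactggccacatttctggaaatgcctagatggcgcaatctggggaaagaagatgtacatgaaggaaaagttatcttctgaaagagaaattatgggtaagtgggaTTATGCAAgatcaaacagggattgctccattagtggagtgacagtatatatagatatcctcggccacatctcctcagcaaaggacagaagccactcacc

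The C/EBP motif of Il6 starts 128 bases before the start and the NF-kB motif 44 bases before it. The STAT motif of Socs3 starts 154 bases before the start, and the C/EBP motif of Saa3 99 bases before it. Beside these promoters, Il6 and Socs3 stood at 0.893-fold and 0.924-fold with the Hdac6 vector, and Saa3 at 5.78-fold.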

How the data were processed

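Processed intensity per spot comes, per the file headers, from Agilent Feature Extraction 11.5.1.1 (protocol GE1_1105_Oct12), the tool that the submitters' processing notes also list; probe positions are on mm9. A table of log2 values by the authors, with 1 row per gene name, served as an alternative; no source used here states its making.

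Spots with an outlier flag were left out, log2 intensities were averaged over the spots of a probe, and each array's 75th percentile over 56605 probes was subtracted. A probe was tested if well above background on both arrays of at least 1 group and without a missing value (35206 probes). The fit was limma 3.58.1 in R 4.3.3 (lmFit, eBayes with trend, 2 residual degrees of freedom), two-sided, at a threshold of 0.05 after Benjamini-Hochberg adjustment over every probe tested. A gene in a list is its brightest tested probe. Names of 43738 probes were matched to RefSeq. Sequences are from the scanner files or RefSeq.

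On simulated data with the spread of these arrays, the comparison recovered 14 of 50 probes changed 2-fold, 47 of 50 at 4-fold and 50 of 50 at 8-fold, among 35206.

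The members and the gene lists were chosen with earlier results of these data known. Named are all members, a fixed counterpart or target of each (Il11, Osm, Lifr, Jak2, Socs1, Cebpa, Ddit3, Saa1, Saa3, Hp, Lcn2), any changed list gene, and Hdac6; a further counterpart is not reported here. Alternatives were normexp background correction, quantile or median scaling, other filters on dim probes, no trend, the replicate block, the value table, and each array left out.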

Additional observations from a re-analysis of the deposited data

How the results depend on the processing

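None of the member probes passed under the settings that kept all 4 arrays, and 1 passed (the brighter Il6ra probe) in the fits that left out an array, which gave 0 to 1. Over all probes, 4 changed, and the fits with an array left out gave 0 to 302, with 0 without either Hdac6 vector array (1420 and 654 with an unadjusted limma p under 0.05) and 12 and 302 without empty vector 1 and 2. Normexp gave 29, quantile normalization 2, median scaling 0 (727 with an unadjusted p under 0.05), no trend 2, and 19 changed in the value table. The samples share only a replicate number: deviations of same-numbered arrays correlated at -0.36 over 35206 probes, and the replicate block gave 22 probes and 0 members. Crossed pairs, added after seeing the data, gave 15 and 0. The cause of these shifts was not tested.

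Of 192 member values under these alternatives (without the crossed pairs), 167 kept direction and call, 1 passed and 24 turned sign. Other filters on dim probes, no trend and the replicate block leave the log2 differences as in the main fit, so no sign could turn there. With normexp the log2 difference was -0.0025 for Lif, 0.039 for the dimmer Il6ra probe, 0.066 for Jak1 and 0.010 for the third Stat3 probe. With quantile normalization Lif stood at -0.045 and the brightest Osmr probe at 0.00052. Lif stood at -0.080 with median scaling and at -0.072 in the value table. With an array left out, signs turned for Il6 (-0.76 to 0.43 and -0.86 to 0.57), Lif (-0.44 to 0.46), the dimmer Il6ra probe (-0.17 to 0.059), the brightest Il6st probe (-0.12 to 0.0022), Osmr (-0.23 to 0.13, -0.36 to 0.57 and -0.50 to 0.12), Jak1 (-0.19 to 0.065), the dimmer Stat3 probes (-0.83 to 0.24 and -1.18 to 0.34), Cebpb (-0.38 to 0.29), Lifr (-0.24 to 0.0093), Socs1 (-0.43 to 0.28), Cebpa (-0.17 to 0.47), Ddit3 (-0.19 to 0.085) and Hdac6 (-0.45 to 0.17). The brighter Il6ra, second Il6st and brightest Stat3 probes, Socs3 and Cebpd kept their sign under all settings that give a value per probe. The value table has no row per probe, and its Stat3 row stood at -0.22. The adjusted p of Saa3 was 0.0724 with median scaling and 0.229 without trend, and that of Saa1 was 0.0954 and 0.232, with 0.0873 under quantile normalization and 0.0800 in the value table. Hp passed with normexp (7.50e-08), with no filter (0.000669) and with the replicate block (0.000617). The acute-phase median was 0.67 with normexp and 0.88 to 1.29 with an array left out. Scaling on the median moved the median of all tested probes to -0.07. The software's error of the tested member spots was 10% to 20.2% of the signal, and the number of arrays limits the precision.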

Other observations

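Several signalling genes outside the 10, picked here after their values were seen, differed more between arrays of 1 group than between groups. Socs2, an inhibitor gene of the growth hormone pathway, read 2.69 and 1.48 with the Hdac6 vector, against 1.00 and 3.09 with the empty vector. Cebpg, a C/EBP partner gene, read 2.59 and 1.56 with the Hdac6 vector, against 1.32 and 2.52 with the empty vector. Socs5 read -0.65 and -1.49 with the Hdac6 vector, against -2.05 and -0.78 with the empty vector. In each of these, Hdac6 vector 1 and empty vector 2 were the high arrays, the opposite of their place for Cebpb.

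Of the 10 STAT3 targets, Pim1, a kinase gene that STAT3 induces, had the lowest log2 difference and is named after its value was seen. It read 3.15 and 2.78 with the Hdac6 vector, against 3.55 and 3.54 with the empty vector (0.671-fold, limma adjusted p = 1.00). Icam1, Ccnd1 and Timp1 were the targets above 0, with log2 differences of 0.23, 0.07 and 0.03.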
